A study of Mus musculus with 3 samples.

Results

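The histone and DNA modifying enzymes described here are 39 genes that write or erase chemical marks on chromatin: histone deacetylases, sirtuins, lysine demethylases, lysine methyltransferases, acetyltransferases and the enzymes that add or oxidize methyl groups on DNA. They were chosen by name, through probes whose transcript accession maps to one of the 39 symbols. All 39 have a probe, of 20660 genes with a probe on the array, and 38 were measured, of 13181 genes measured in all. Hdac11, a class IV deacetylase, was not measured, because its probe was not well above background in any channel.

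Gene expression was compared between wild-type C57BL/6J mouse bone marrow-derived macrophages given adiponectin, a hormone secreted by fat cells, at 12 µg/ml for 18 h and the same cells left untreated. All cells were matured in medium conditioned by L929 fibroblasts, a source of the macrophage growth factor CSF-1, and both groups were then kept in low serum. Each of 3 arrays held 1 treated and 1 untreated RNA sample in 2 dyes, so that 6 RNA samples gave 3 ratios of treated over untreated. Cy3 carried the treated RNA on replicates 1 and 3, and the dyes were swapped on replicate 2, so that a dye effect does not cancel in the mean. The µg/ml unit is that of the labels' treatment text; their extraction text has mg/ml. The source and purity of the adiponectin and the age of the mice are not given in the sources used here. The labels call the arrays biological replicates without saying whether the cells came from separate mice, so p-values measure the spread between these samples. With 3 arrays, that number limits the precision.

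Acetyl groups on histone tails accompany active genes, and they are added by acetyltransferases and removed by deacetylases. Methyl groups on lysines act by position: those on lysine 4, 36 or 79 of histone H3 are found at active genes, and those on lysine 9 or 27 at silent ones. In macrophages these enzymes help to set which inflammatory genes can respond to a stimulus. TET enzymes oxidize the methyl groups on DNA that DNMT enzymes add.

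The whole table serves as the scale for the members. Of the 13181 genes, 24.5% were called higher and 46.1% lower at an adjusted p under 0.05 in limma, and the median log2 change was -0.17. Between 43.9% and 47.5% of probes were well above background in treated channels and between 53.4% and 54.3% in untreated ones. All 9 macrophage markers with a probe were well above background in every untreated channel, and 8 of them were lower after treatment, down to -2.39 on the log2 scale for Cx3cr1, while Cd14 was at 0.97. Of the markers of other cells, none of 5 erythroid, 1 of 5 B cell, 1 of 4 natural killer cell, 1 of 5 mast cell, 2 of 5 dendritic cell, 2 of 6 fibroblast, 3 of 6 T cell, 1 of 4 adipocyte and 6 of 7 neutrophil genes were well above background in every untreated channel. The changes of those measured ran from -2.08 for the neutrophil gene Ltf to 1.51 for the dendritic cell gene Zbtb46, with both directions among neutrophil genes (Camp 1.27, Mpo -1.32). The T cell genes split: Cd3e (0.96), Lck (0.89) and Cd4 (-0.12) were well above background in all 6 readings, and Cd3d, Cd3g and Cd8a in none. The adipocyte gene Fabp4 (0.43), which macrophages also express, and the natural killer cell gene Prf1 (-0.027) were well above background in all 6, and Adipoq and Ncr1 in none. The part of these marker changes in the results for the members was not tested, and in bulk RNA fewer cells of a type and less RNA per cell cannot be told apart.

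Of the 38 measured members, 11 rose and 14 fell, and 13 did not pass the threshold. One of the 14, Hdac2, was kept only through its untreated readings, while the other 37 members were well above background in all 6 readings. The shares of 28.9% and 36.8% stand beside 24.5% and 46.1% over all genes, so the members as a set lay near the background. Their median log2 change was -0.082. After centring every array on its tested genes, 16 members passed as higher and 10 as lower, with a median of 0.088. At 2-fold or more, 4 members rose, against 6.8% of all genes, and 6 fell, against 12.6% of all genes. The 4 were the deacetylase Hdac9, the demethylases Kdm4a and Kdm6b and the DNA dioxygenase Tet2. The 6 were the acetyltransferases Kat2a and Kat2b, the deacetylase Hdac10, the demethylase Kdm2b, the sirtuin Sirt5 and the methyltransferase Ezh1. The limma adjusted p of these 10 ranged from 1.08e-06 to 1.34e-05. With a required log2 change of 1, 8 of the 10 passed, and Ezh1 (limma adjusted p = 0.14) and Kat2b (0.362) did not.

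**Figure D1:**
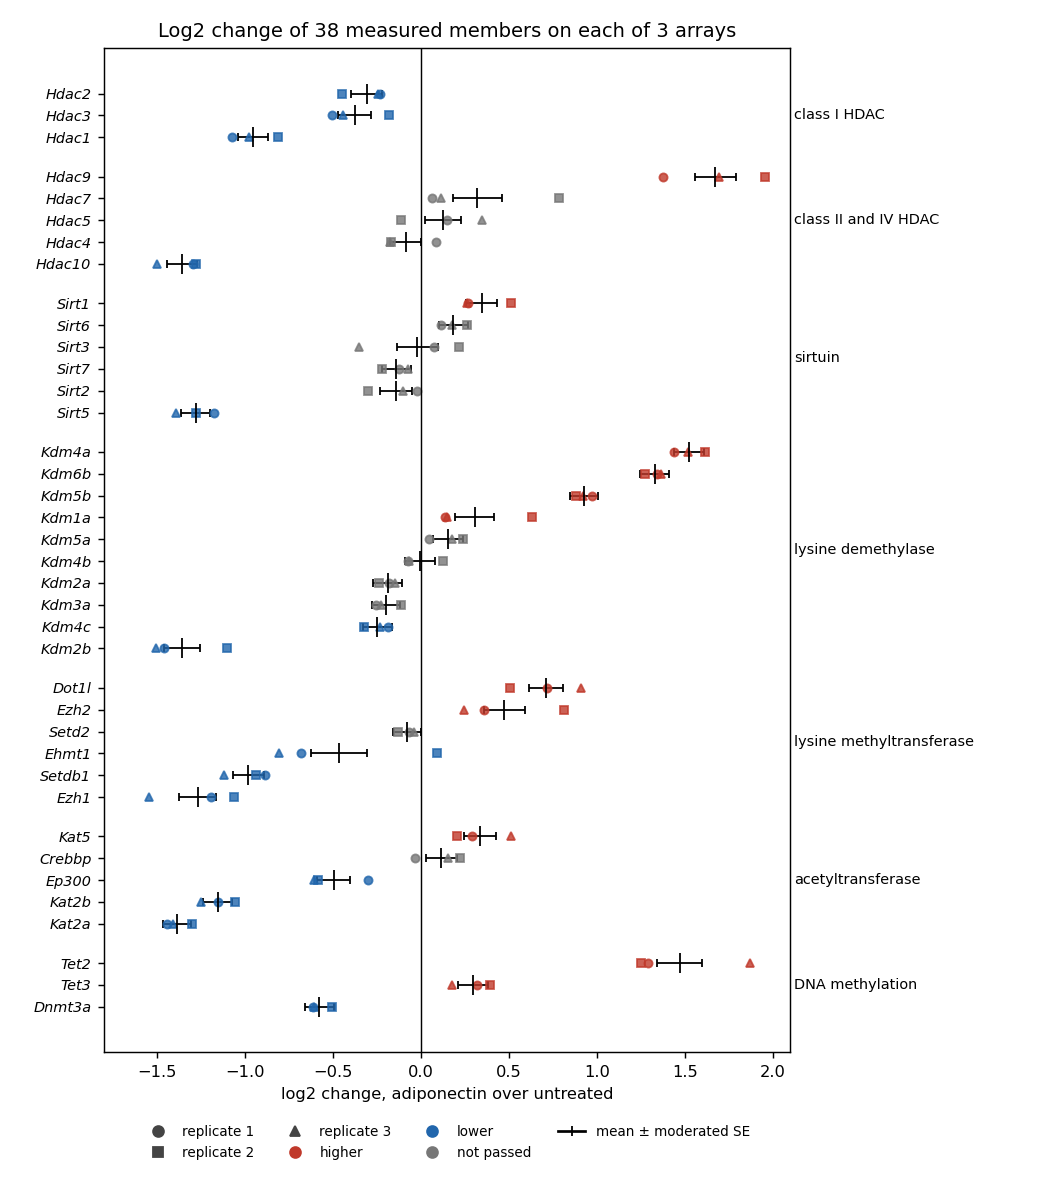
Log2 change of treated over untreated (horizontal axis) for the 38 measured members, grouped by role, with 1 symbol per array and a bar for the mean and its moderated SE. Red members were called higher, blue ones lower and grey ones did not pass. Hdac9 lies farthest to the right at 1.67 and Kat2a farthest to the left at -1.39, and the class I deacetylases all lie below 0.

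The spread of the members was much like that of all genes. Their changes ran from -1.39 to 1.67, while those of all genes ran from -4.11 to 6.16, so the largest changes of these cells lay outside the set. The lower and upper quartiles of the members were -0.49 and 0.32, and those of all genes were -0.64 and 0.22.

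**Figure D2:**
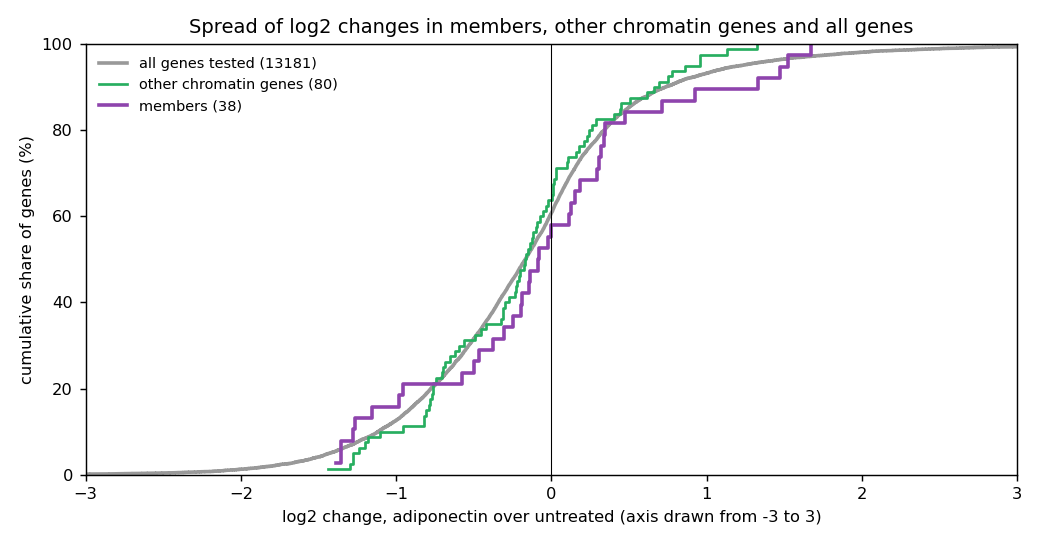
Cumulative share of genes (vertical axis, percent) against the log2 change of treated over untreated (horizontal axis, drawn from -3 to 3) for the 38 measured members, 80 other chromatin genes and all 13181 genes tested. The 3 curves run close together, with medians of -0.082, -0.17 and -0.17.

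Sequences before the start sites of Tet2, Kdm4a, Hdac9 and Kat2b are shown here. These 4 were picked after the values were seen, from members that changed by 2-fold or more, because their windows hold a repeat or an AP-1 form. The sequences come from RefSeq windows on GRCm38.p6 that span 250 bases before to 50 after each start, and 32 of the 39 members have a window. Hdac1, Hdac3, Hdac10, Kdm2a, Kdm4b, Kdm5a and Kdm6b have none. Positions are counted back from the base before the start, which is -1. The letters TGANTCA, a form of the AP-1 element, occur on either strand of a window in 5 of the 32 members (15.6%), against 8.97% of 27025 genes. A loose NF-kB form, GGG and CC with any 5 bases between them, occurs in 24 of 32 members (75%), against 53.5% of genes, and it can overlap itself. With its middle bases free, a match need not be an NF-kB site, and matches were not checked against a stricter form. CACGTG, an E-box, occurs in 5 of 32 members (15.6%), against 8.09% of genes. TGACGTCA and TGATGCAA occur in 0 of 32 members, against 2.03% and 1.03% of genes. A gene was counted if any of its windows held the letters, so genes with more windows have more room for a match. Of the members with the AP-1 form, Hdac7 has 4 windows, Kdm3a 3, Hdac9 and Kat2b 2 each and Kdm4a 1. The number of windows was not matched between members and all genes. These shares describe letters only.

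Before the start of Tet2, on the minus strand at chr3:133544391-133544640, the letters GGGTCCCGCC stand 4 times, each 42 bases after the last, and are in capitals. The 42-base units that begin with copies 2, 3 and 4 share 38, 41 and 38 bases with that of copy 1. A window with 4 or more identical matches to the loose form of GGG and CC was found in 40 of 32851 windows (0.122%). That count of matches was set after the Tet2 window was seen, so the share is a description and no test. Whether the repeat holds NF-kB sites was not tested.
Tet2, bases -250 to -1: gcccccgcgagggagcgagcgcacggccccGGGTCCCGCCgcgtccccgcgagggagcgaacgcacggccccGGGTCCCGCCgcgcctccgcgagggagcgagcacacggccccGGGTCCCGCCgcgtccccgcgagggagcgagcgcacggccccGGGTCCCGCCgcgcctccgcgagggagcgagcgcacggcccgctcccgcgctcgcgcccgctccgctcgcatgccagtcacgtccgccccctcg

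In the windows of Kdm4a and Hdac9, which rose, and of Kat2b, which fell, the capitals mark TGANTCA. They lie at chr4:118180164-118180263 (minus strand), chr12:34528890-34528989 (minus strand) and chr17:53566721-53566820 (plus strand). Hdac9 has another start, at chr12:34917243-34917342 (minus strand), where the capitals mark 2 matches to the loose form of GGG and CC.
Kdm4a, bases -220 to -121: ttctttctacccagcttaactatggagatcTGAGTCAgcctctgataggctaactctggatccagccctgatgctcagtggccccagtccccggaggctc
Hdac9, downstream start, bases -100 to -1: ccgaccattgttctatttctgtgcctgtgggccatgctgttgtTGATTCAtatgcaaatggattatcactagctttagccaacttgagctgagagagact
Hdac9, upstream start, bases -247 to -148: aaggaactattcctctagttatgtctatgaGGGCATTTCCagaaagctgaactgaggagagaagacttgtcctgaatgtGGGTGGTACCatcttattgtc
Kat2b, bases -250 to -151: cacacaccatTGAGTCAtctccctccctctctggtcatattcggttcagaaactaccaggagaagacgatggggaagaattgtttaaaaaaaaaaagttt
The other 2 members with letters of the AP-1 form in a window, Hdac7 and Kdm3a, did not pass.

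Of the class I deacetylases, catalytic subunits of the large nuclear co-repressor complexes, Hdac1 and Hdac3 were lower with signal well above background in both groups. Hdac1 had normalized log2 intensities of 12.96, 12.75 and 12.81 in untreated cells on replicates 1, 2 and 3 and of 11.89, 11.94 and 11.84 in treated cells. Every treated reading lay below every untreated one. Its log2 change was -0.95 ± 0.088 (moderated SE, n = 3 arrays; limma adjusted p = 1.96e-05), and its 2 dimmer probes gave -0.88 ± 0.094 and -0.77 ± 0.076. Hdac3, the enzyme of the NCoR and SMRT complexes, was at -0.38 ± 0.093 (limma adjusted p = 0.00633), with -0.51, -0.18 and -0.44 on the 3 arrays. Hdac2, the close relative of Hdac1, was dim: its mean was 6.69 in untreated cells and 6.38 in treated cells, where it was not well above background on any array. Hdac2 entered the test only through its untreated readings, so its call as lower (limma adjusted p = 0.0115) is not counted as support, and it drops out where all 6 readings must be well above background. Its fitted log2 change of -0.31 ± 0.086 depended on the background correction: it was -0.81 with normexp at offset 0 and -1.30 from the scanner software's ratio. After the same centring on tested genes, Hdac2 (-0.14; limma adjusted p = 0.192) and Hdac3 (-0.21; 0.0676) did not pass, and Hdac3 did not pass without replicate 1 (limma adjusted p = 0.0611).

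The class II deacetylases went apart. The class IIa enzymes bind MEF2 transcription factors and shuttle between nucleus and cytoplasm under control of phosphorylation. Hdac9, one of them, read 7.13, 6.90 and 6.88 in untreated cells and 8.50, 8.85 and 8.57 in treated cells. The groups were far apart, with the highest untreated reading at 7.13 and the lowest treated one at 8.50. Hdac9 rose by 1.67 ± 0.11 on the log2 scale, or 3.19-fold (limma adjusted p = 3.59e-06), the largest change among the members. Its size depended on the background correction: it was 2.39 with normexp at offset 0 and 2.56 from the ratio the scanner software computed. The other class IIa members did not pass: Hdac4 was at -0.086 ± 0.090, Hdac5 at 0.13 ± 0.10 and Hdac7 at 0.32 ± 0.14. Hdac7 had 0.062, 0.78 and 0.11 on the 3 arrays, with the dye-swapped replicate 2 well above the others. Hdac7 passed as higher in 6 of 16 alternatives, among them the authors' table (limma adjusted p = 0.0294).

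Hdac10, a class IIb enzyme that deacetylates polyamines, fell. It read 9.16, 9.06 and 9.22 in untreated cells and 7.87, 7.78 and 7.72 in treated cells. The lowest untreated reading, 9.06, lay well above the highest treated one, 7.87. The log2 change was -1.36 ± 0.087, or 2.56-fold lower (limma adjusted p = 2.46e-06), and a second probe gave -1.40 ± 0.10.

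Among sirtuins, the NAD-dependent deacylases, 1 rose, 1 fell and 4 did not pass, beside 24.5% higher and 46.1% lower over all genes. Sirt5, which removes succinyl and malonyl groups, mostly in mitochondria, read 8.65, 8.56 and 8.69 in untreated cells and 7.47, 7.28 and 7.30 in treated cells. Its readings did not overlap, and it fell on all 3 arrays. Its log2 change was -1.28 ± 0.085, or 2.43-fold lower (limma adjusted p = 3.04e-06), and the ratio that the scanner software computed gave -1.92. Sirt1, a nuclear deacetylase of histones and of NF-kB, was higher at 0.35 ± 0.089 (limma adjusted p = 0.00745), with 0.27, 0.51 and 0.26 on the arrays. With median centring instead of loess its value turned to -0.80 (limma adjusted p = 0.295). The mitochondrial Sirt3 (-0.020 ± 0.12), the mostly cytoplasmic Sirt2 (-0.14 ± 0.089) and the nuclear Sirt6 (0.18 ± 0.082) and Sirt7 (-0.14 ± 0.082) did not pass. The probes of Sirt7 disagreed in sign, with -0.13, -0.22 and -0.070 on the arrays for the brighter and 0.25, 0.082 and 0.24 for the dimmer. The dimmer probe of Sirt6 was at 0.003 ± 0.085. Sirt6 passed as higher in 7 of 16 alternatives, with 0.36 after centring on tested genes.

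**Figure D3:**
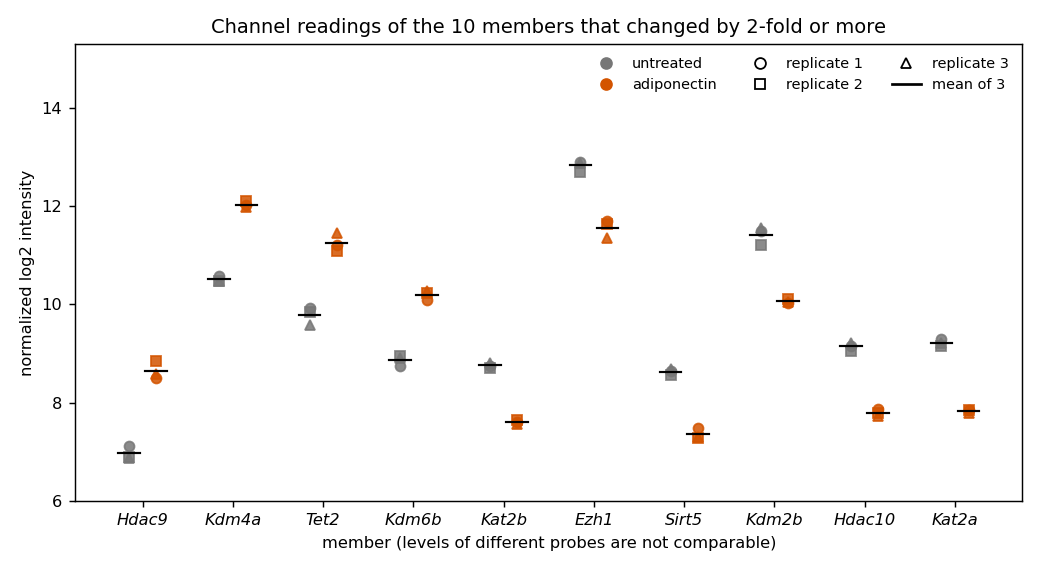
Normalized log2 intensity (vertical axis) of the 10 members called at 2-fold or more, with grey symbols for untreated and orange ones for treated RNA, 1 shape per replicate and a line at each mean. In each gene the treated and untreated readings are apart, such as 7.13 against 8.50 for the nearest readings of Hdac9.

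Lysine demethylases were the largest class of members. Of 10 measured, 4 rose (40%), 2 fell (20%) and 4 did not pass, beside 24.5% higher and 46.1% lower over all genes. Their median log2 change was 0.075, which turned to -1.09 with median centring instead of loess. Kdm4a, which removes methyl groups from lysines 9 and 36 of histone H3, read 10.58, 10.48 and 10.46 in untreated cells and 12.02, 12.09 and 11.98 in treated cells. All treated readings lay above all untreated ones, and the ratios of the 3 arrays, 1.44, 1.62 and 1.52, were close. Kdm4a rose by 1.52 ± 0.083 on the log2 scale, or 2.88-fold (limma adjusted p = 1.08e-06), and a second probe, of another transcript accession, gave 1.63 ± 0.089. Its relatives act on the same marks. Kdm4b was at -0.0055 ± 0.086 and did not pass. Kdm4c was at -0.25 ± 0.082 (limma adjusted p = 0.0239), a call that went missing in 10 of 16 alternatives, each array left out in turn among them (limma adjusted p = 0.0747, 0.0631 and 0.0771).

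Kdm6b, also called JMJD3, erases the repressive mark on lysine 27 of histone H3 and is known as an enzyme induced in activated macrophages. It read 8.75, 8.95 and 8.91 in untreated cells and 10.09, 10.23 and 10.27 in treated cells, without overlap. Kdm6b rose by 1.33 ± 0.080 on the log2 scale, or 2.51-fold (limma adjusted p = 1.86e-06), and the 3 ratios were 1.34, 1.28 and 1.37. Its paralogue Kdm6a, which is no member, was at -0.15 ± 0.081 and did not pass.

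Kdm5b, an eraser of the lysine 4 mark, passed as higher at 0.92 ± 0.080 (limma adjusted p = 1.37e-05), with 0.97, 0.88 and 0.92 on the arrays. A dimmer probe of the same transcript gave 0.19, -0.32 and -0.26, a mean of -0.13 ± 0.11, and did not pass. The mean over both probes was 0.40 and still passed (limma adjusted p = 0.00315). Median centring instead of loess turned the brighter probe to -0.25 (limma adjusted p = 0.745). Its relative Kdm5a, at 0.15 ± 0.084, did not pass.

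Kdm2b, an eraser of the lysine 36 mark that recruits a Polycomb complex to CpG islands, fell. It read 11.49, 11.21 and 11.55 in untreated cells and 10.03, 10.11 and 10.04 in treated cells. The treated readings were nearly equal, and all lay below the untreated ones. The log2 change was -1.36 ± 0.10, or 2.56-fold lower (limma adjusted p = 5.83e-06), and a dimmer probe gave -0.62 ± 0.088. Its paralogue Kdm2a was at -0.19 ± 0.080 and did not pass, though a dimmer probe, at -0.46 ± 0.11, did. The arrays gave -0.18, -0.24 and -0.15 for the brighter probe of Kdm2a and -0.74, -0.19 and -0.44 for the dimmer. Kdm1a, the flavin-dependent demethylase LSD1, passed as higher at 0.31 ± 0.11 (limma adjusted p = 0.0378). Its ratios were 0.13, 0.63 and 0.15, so the value rested largely on the dye-swapped replicate 2. Without replicate 2 it was 0.14 (limma adjusted p = 0.175), and with median centring instead of loess -0.88 (limma adjusted p = 0.33). Kdm3a, an eraser of the lysine 9 mark, was at -0.20 ± 0.082 and did not pass, though it passed as lower in 5 of 16 alternatives.

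The lysine methyltransferases moved both ways, with 2 higher, 3 lower and 1 not passing, beside 24.5% higher and 46.1% lower over all genes. Ezh1 and Ezh2 are the alternative catalytic subunits of Polycomb repressive complex 2, which writes the lysine 27 mark; Ezh1 is the form of resting cells and Ezh2 that of dividing ones. Ezh1 read 12.90, 12.70 and 12.89 in untreated cells and 11.70, 11.64 and 11.34 in treated cells. The groups did not overlap, and replicate 3 had the lowest treated reading. Its log2 change was -1.27 ± 0.11, or 2.41-fold lower (limma adjusted p = 1.14e-05), while its 2 dimmer probes gave -0.82 ± 0.079 and -0.44 ± 0.11, and the mean over its probes was -0.84. Ezh2 was higher at 0.47 ± 0.12 (limma adjusted p = 0.00604), with 0.36, 0.81 and 0.25 on the arrays. Median centring in place of loess turned Ezh2 to -0.49 (limma adjusted p = 0.508) and left Ezh1 at -2.42. It moved the ratios down as a whole, so the kept sign of Ezh1 is no test of its fall. Of the partners of both enzymes in the complex, which are no members, Eed was lower at -0.76 ± 0.089 and Suz12 higher at 0.50 ± 0.087. These partners, Kdm6a and the other relatives of members that are named for comparison were picked after their values were seen.

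Setdb1 and Ehmt1 write the lysine 9 mark of silent chromatin. Setdb1 read 8.74, 8.68 and 8.73 in untreated cells and 7.85, 7.74 and 7.61 in treated cells, again without overlap. It was lower at -0.98 ± 0.087 (limma adjusted p = 1.55e-05). Ehmt1, also called GLP, was at -0.46 ± 0.16 (limma adjusted p = 0.0287), but its arrays differed in sign, with -0.68, 0.093 and -0.80, and its treated and untreated readings overlapped. A dimmer probe of Ehmt1 gave -0.45, -0.41 and -0.58 and -0.48 ± 0.079 on average, with less spread. The call of the brighter probe was lost without replicate 1 (limma adjusted p = 0.136) and without replicate 3 (0.179). Dot1l, the writer of the lysine 79 mark, was higher at 0.71 ± 0.098 (limma adjusted p = 0.00022), with readings of 11.32, 11.47 and 11.28 in untreated and 12.03, 11.98 and 12.19 in treated cells. It turned to -0.45 with median centring instead of loess (limma adjusted p = 0.521). Setd2, the writer of trimethylated lysine 36, was at -0.079 ± 0.080 and did not pass.

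Both acetyltransferases of the GCN5 family fell. Kat2a (GCN5) and Kat2b (PCAF) are close paralogues that acetylate lysine 9 of histone H3 within the SAGA and ATAC complexes. Kat2a read 9.30, 9.15 and 9.21 in untreated cells and 7.85, 7.84 and 7.80 in treated cells. Kat2b read 8.75, 8.70 and 8.81 in untreated cells and 7.60, 7.64 and 7.56 in treated cells. In both genes every treated reading lay below every untreated one. The log2 change was -1.39 ± 0.082 for Kat2a, or 2.61-fold lower (limma adjusted p = 1.65e-06). For Kat2b it was -1.15 ± 0.084, or 2.23-fold lower (limma adjusted p = 5.10e-06). A dimmer probe of Kat2a gave -0.45 ± 0.079, but it was not well above background in treated cells on any array, so its size is only a bound. The mean over the probes of Kat2a was -0.92.

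The paralogues CBP and p300, broad co-activators that acetylate lysine 27, did not share a call. Ep300 was lower at -0.50 ± 0.093 (limma adjusted p = 0.00136), with -0.30, -0.58 and -0.60 on the arrays, and Crebbp was at 0.12 ± 0.088 and did not pass. The difference between them was not tested. Kat5 (TIP60), an acetyltransferase of histone H4 and of DNA repair, was higher at 0.34 ± 0.091 (limma adjusted p = 0.00959), and its second probe gave 0.35 ± 0.076. Without replicate 3, Kat5 did not pass (limma adjusted p = 0.0797), and it turned to -0.82 with median centring instead of loess (limma adjusted p = 0.289).

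Of the 3 members that act on DNA methylation, Tet2 and Tet3 passed as higher and Dnmt3a as lower. Tet2, which in myeloid cells also restrains inflammatory genes and is often lost in clonal blood growth, read 9.92, 9.85 and 9.59 in untreated cells and 11.21, 11.09 and 11.46 in treated cells. Replicate 3 had both the lowest untreated and the highest treated reading, and the groups did not overlap. Tet2 rose by 1.47 ± 0.13 on the log2 scale, or 2.77-fold (limma adjusted p = 1.34e-05), and a second probe gave 1.39 ± 0.11. Without replicate 3 it was 1.27 (limma adjusted p = 2.87e-05). Tet3 was higher at 0.30 ± 0.085 (limma adjusted p = 0.0128), with 0.30 ± 0.083 and 0.22 ± 0.098 for its dimmer probes, the second of which did not pass. The arrays gave 0.32, 0.39 and 0.18 for the brightest probe of Tet3, 0.18, 0.42 and 0.29 for the next and 0.45, 0.014 and 0.19 for the dimmest. The call of Tet3 was lost without replicate 1 (limma adjusted p = 0.0771), and median centring instead of loess turned it to -0.37 (limma adjusted p = 0.523). Dnmt3a, which sets new methyl groups on DNA, was lower at -0.58 ± 0.081 (limma adjusted p = 0.000252), with readings of 10.83, 10.76 and 10.74 in untreated and 10.22, 10.26 and 10.13 in treated cells. These readings were apart and close within each group. Of their relatives that are no members, Dnmt3b was higher at 0.29 ± 0.083, and Dnmt1 (0.16 ± 0.086) and Tet1 (-0.055 ± 0.079) did not pass.

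**Figure D4:**
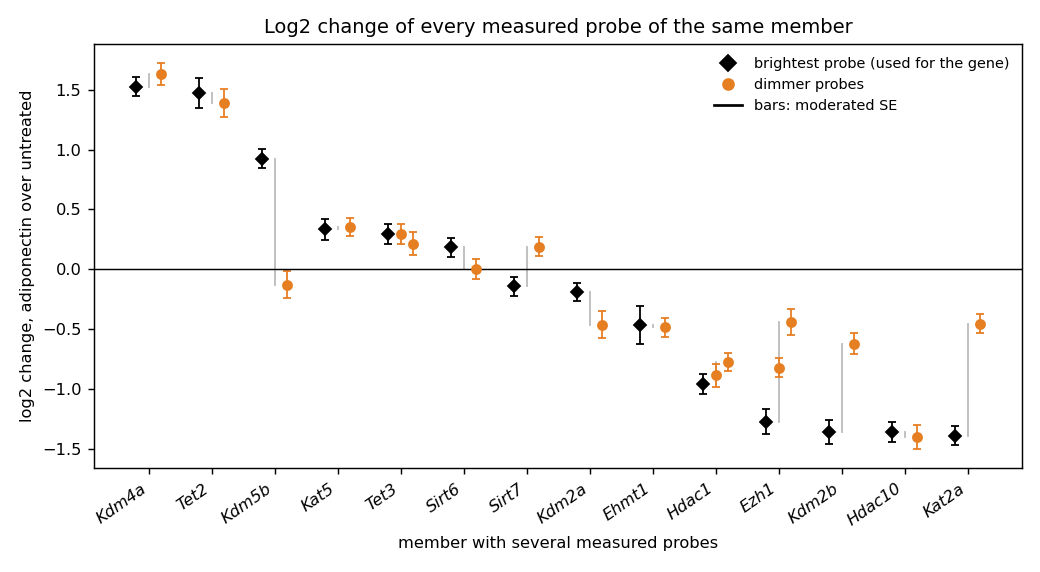
Log2 change of treated over untreated (vertical axis) for each measured probe of the 14 members with several, with black diamonds for the brightest probe, orange points for dimmer ones and bars for the moderated SE. The probes of Hdac10 lie together at -1.36 and -1.40, while those of Kdm5b lie apart at 0.92 and -0.13.

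Several probes were measured for 14 members, and in 12 of them the probes had the same sign. In 4 members, Kdm5b, Kat2a, Ezh1 and Kdm2b, the probes lay more than 0.5 apart on the log2 scale. In each of these the brightest probe gave the largest change. The other 24 measured members rest on 1 probe each. None of the 38 had a dye coefficient past the threshold (lowest limma adjusted p = 0.113), in a fit with 1 residual degree of freedom. Treated and untreated readings did not overlap in 30 of the 38, 13 of them higher and 17 lower. Over all 13181 genes they did not overlap in 3538 higher (26.8%) and 6425 lower (48.7%). The 17 include Hdac2, which was kept only through its untreated readings.

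The members can also be set side by side by the mark they act on. For lysine 27, the eraser Kdm6b rose by 1.33, the writer Ezh1 was at -1.27 and the writer Ezh2 at 0.47. For lysine 9, the eraser Kdm4a rose by 1.52 and the writers Setdb1 and Ehmt1 were at -0.98 and -0.46, while the eraser Kdm4c was at -0.25 and the erasers Kdm3a and Kdm4b did not pass. Prdm2, a writer of that mark that is no member, was higher at 1.13 ± 0.091. The other non-member writers Ehmt2 (-0.093), Suv39h1 (0.11) and Suv39h2 (-0.31) did not pass. Of the relatives of Kdm3a that are no members, Jmjd1c (-0.69) was lower and Kdm3b (-0.12) did not pass. Kdm4a and its relatives Kdm4b and Kdm4c also erase another mark, found at active genes. For that mark, the eraser Kdm2b was at -1.36, and its paralogue Kdm2a (-0.19) and the writer Setd2 did not pass. A dimmer probe of Kdm2a, at -0.46, did. Among writers of that mark that are no members, Nsd1 (-0.77), Ash1l (-0.78) and Nsd3 (-0.49) were lower and Nsd2 (0.41) was higher. Marks on other lysines are not set side by side here. For DNA methylation, Tet2 (1.47) and Tet3 (0.30) were higher and the writer Dnmt3a (-0.58) was lower. Of their relatives that are no members, Dnmt3b (0.29) and the inactive partner Dnmt3l (0.96) were higher, and Dnmt1 and Tet1 did not pass. For acetylation, the writers Kat2a (-1.39), Kat2b (-1.15) and Ep300 (-0.50) were lower, Kat5 (0.34) was higher and Crebbp (0.12) did not pass. Of the deacetylases, Hdac1 (-0.95) and Hdac3 (-0.38) were lower, Hdac9 (1.67) and Sirt1 (0.35) were higher, and Hdac4, Hdac5 and Hdac7 did not pass. The sirtuins Sirt2, Sirt3, Sirt6 and Sirt7 did not pass either. Sirt5 (-1.28), described above as removing succinyl and malonyl groups, was lower. Hdac10 (-1.36), described above as an enzyme of polyamines, was lower, and the dim Hdac2 is left out. Not all of these calls were stable. Those of Hdac3, Kdm4c, Ehmt1, Kat5 and Tet3 were lost in some of the alternatives other than median centring and a required change. With median centring instead of loess, Ezh2, Sirt1, Kat5 and Tet3 changed sign, and no member passed. All values here are transcript changes, and the marks themselves were not analysed.

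The same comparison was made for 86 other genes of histone and DNA modification, which include readers and complex subunits, to set the members against the rest of their pathway. Of these, 82 had a probe and 80 were measured. Of the 80, 17 passed as higher (21.2%) and 33 as lower (41.2%), again near the 24.5% and 46.1% of all genes. The largest rises among them were Hat1, a cytoplasmic histone acetyltransferase (1.32 ± 0.079), Prdm2, a lysine 9 methyltransferase (1.13 ± 0.091), Dnmt3l, a catalytically inactive partner of DNA methyltransferases (0.96 ± 0.098), Kmt5a, the writer of monomethylated lysine 20 on histone H4 (0.96 ± 0.083), and the co-repressor scaffold Sin3b (0.86 ± 0.091). Among the largest falls were Ncoa2 (-1.44 ± 0.11), Ncoa1 (-1.30 ± 0.086) and Ncoa3 (-1.28 ± 0.11), the p160 co-activators that bind nuclear receptors and recruit CBP and p300. Smyd2, a lysine methyltransferase, was also among them (-1.24 ± 0.10). All values are log2 changes with moderated SEs over 3 arrays, and each of these 9 passed in limma with Benjamini-Hochberg adjustment over all genes.

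The normalization moved the level of all ratios and, in 7 of the members called higher, the direction, among them Kdm5b at 0.92 and Dot1l at 0.71. With median centring instead of loess, the median of all genes moved from -0.17 to -1.03 and that of the members from -0.082 to -1.17, and limma called 0 members in either direction, with 12 at an unadjusted p under 0.05. All 14 members called lower stayed below 0 and 7 of the 11 called higher turned to below 0, while Hdac9 (0.91), Kdm4a (0.35), Tet2 (0.29) and Kdm6b (0.20) stayed above 0. This setting moved the ratios down as a whole, so the kept sign of the members called lower is no test of their falls. Over the 14 alternatives other than median centring and a required change, 18 of the 25 called members passed in every one, and the 10 with a change of 2-fold or more were among them, with a limma adjusted p of at most 0.00116.

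**Figure D5:**
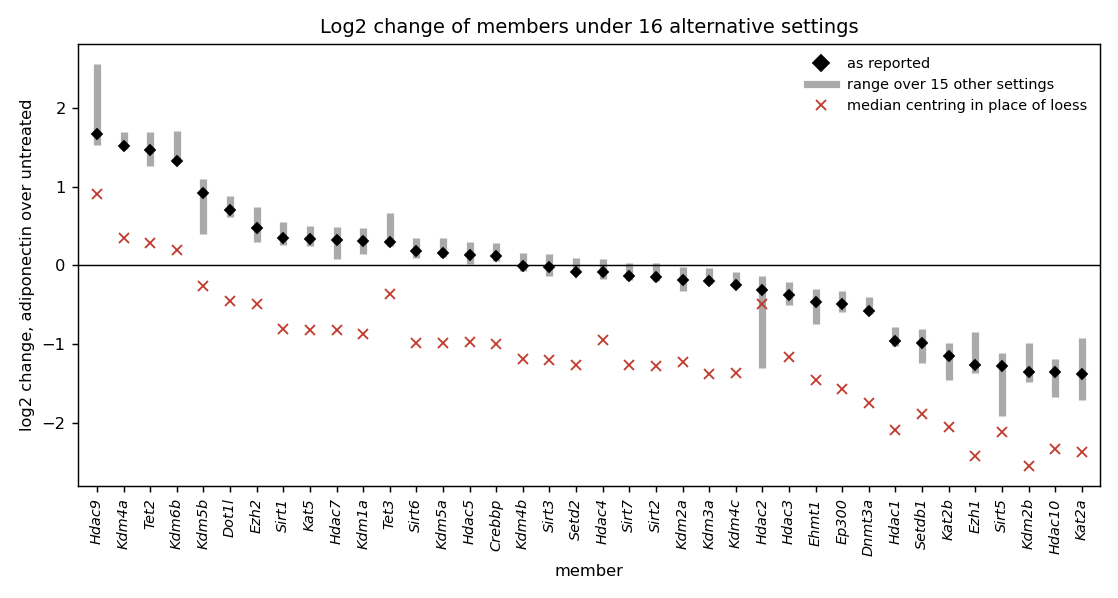
Log2 change of treated over untreated (vertical axis) for the 38 measured members, ordered by their value, with diamonds for the reported values, grey bars for the range over 15 other settings and red crosses for median centring in place of loess. The crosses of Hdac9, Kdm4a, Tet2 and Kdm6b lie above 0, at 0.91, 0.35, 0.29 and 0.20, and those of all other members lie below it.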

How the data were processed

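RNA of treated and untreated mouse macrophages was hybridised to 3 Agilent 2-colour arrays of 1 slide, per the file headers. Per the file headers, arrays were quantified with Agilent Feature Extraction 10.7.3.1. The deposited intensity columns hold median pixel brightness of spot and background, unnormalized per the file headers. A deposited log10 ratio compares Cy5 with Cy3 after background subtraction and dye normalization, per the file headers. The deposited table of the authors' log2 values was used as an alternative. How it was made was not given in the sources used here. It was set against treated-over-untreated loess ratios made without background correction, not the reported normexp ratios. Over 59305 spots its columns correlated with them at r = 0.994, 0.990 and 0.992. Its direction was therefore taken as treated over untreated (medians -0.0024, -0.0097 and -0.0058). Its scale matched log2 (slopes against the same ratios 1.04, 1.08 and 1.05).

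Intensities were corrected with normexp (offset 50) and loess in limma 3.58.1 (R 4.3.3), with control spots at weight 0. Outlier spots (323, 303 and 299 on replicates 1, 2 and 3) were left out. Accessions were named through RefSeq (GRCm38.p6): 27235 of 55681 probes matched 1 symbol. A probe was kept if well above background in at least 3 of 6 channel readings, and the brightest stood for a gene. Ratios were tested against 0 with lmFit and eBayes, called at a Benjamini-Hochberg adjusted p under 0.05 over 13181 genes. Channel readings are log2 intensities after loess and A-quantile normalization. SEs are moderated (6.22 prior and 2 residual degrees of freedom). The fit was also run on simulated ratios with independent noise of each gene's own spread. No dye effect, array shift or normalization step was simulated, so that run cannot speak to these. Members with a call and a log2 change of 1 or more, or with disagreeing probes, were named with values per array. Of other chromatin genes, the 5 largest rises and falls were to be named, and 1 of the falls is not reported here. Members and lists were chosen with earlier results of these data known.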

Additional observations from a re-analysis of the deposited data

How the results depend on the processing

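Of 16 alternatives, 14 kept the counts of all genes, members and other chromatin genes within 1.5 times the reported ones in each direction. Where median centring replaced loess, 0 genes, 0 members and 0 other chromatin genes passed as higher in limma, and 0 of each as lower (5315 genes, 12 members and 33 other chromatin genes at an unadjusted p under 0.05). With a required log2 change of 1, limma called 575 genes higher and 872 lower, 4 members higher and 4 lower, and 1 other chromatin gene higher and 3 lower. Median centring turned Sirt1 to -0.80, Kdm1a to -0.88, Kdm5b to -0.25, Ezh2 to -0.49, Dot1l to -0.45, Kat5 to -0.82 and Tet3 to -0.37, and the cause was not tested. After centring every array on its tested genes, the lower share of the called members went from 56.0% to 38.5%, and that of all called genes from 65.3% to 51.0%. In the other 14 alternatives, 18 of 25 called members passed every time; Hdac2, Hdac3, Kdm1a, Kdm4c, Ehmt1, Kat5 and Tet3 did not. Of the 13 members that did not pass, 7 passed in at least 1 of these alternatives. Hdac5, Hdac7, Sirt6, Kdm5a and Crebbp passed there as higher, and Kdm2a and Kdm3a as lower. Signal over background limits Hdac2, which gives no value where all 6 readings must be well above background, and Hdac11, which gives none in the reported setting. The reported fit is itself paired, because each ratio pairs the treated and untreated RNA of 1 array.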
